A study of Mus musculus with 20 samples.

Results

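The immunoglobulin genes of the mouse lung are described across genotype and oxygen: the V segments of the heavy, kappa and lambda loci and the constant regions that define antibody class. Members were rows named as a V segment (Ighv, Igkv or Iglv and a number), as Iglc and a number, or as Ighm, Ighd, Ighg1, Ighg2b, Ighg2c, Ighg3, Igha or Igkc, with a normalized signal of 10 or more in at least 4 of 20 libraries. Of 203 matching names, 99 met that threshold, among 21658 rows of any kind that met it. They were 38 of 96 heavy V segments, 47 of 92 kappa V segments, all 3 lambda V segments, all 7 heavy constant regions, Igkc and 3 of 4 lambda constant regions. Members were thus chosen by measured signal: a segment that was high in 1 group could enter through that group alone, so counts over the 99 are descriptions. Just inside it stood Igkv15-103, whose 4 highest libraries went down to a signal of 10.46, and just outside it Igkv17-121, whose 4 highest went down to 9.98. The 104 names under the threshold held 1.32% to 4.27% of the matching signal of a library.

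RNA was sequenced from whole lungs of wild-type C57BL/6 mice (WT) and of mice labelled VIP knockout (VIPKO), which had breathed 21% oxygen (normoxia) or 10% oxygen for 4 weeks (hypoxia). The groups were WT normoxia with 6 libraries, WT hypoxia with 5, VIPKO normoxia with 4 and VIPKO hypoxia with 5, all placed in 1 batch. The series is described as a deletion of the gene for vasoactive intestinal peptide, while the genotype field says knockdown, and how the deletion was made is not given. Age is not given, and no label states that libraries came from separate animals, so p-values measure only the spread between these samples.

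An antibody is built of heavy and light chains, each with a variable part, joined from V, D and J segments, and a constant part. A resting naive B cell makes IgM and IgD from 1 long transcript that is spliced to either Ighm or Ighd, and an activated B cell can move its rearranged V region next to a downstream constant region, which switches the class to IgG, IgE or IgA. Plasma cells secrete antibody and carry far more immunoglobulin RNA per cell than resting B cells. In whole lung, fewer cells of a type and less RNA per cell cannot be told apart.

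Sequencing depth, estimated from the signal that 1 read is worth, ran from 4.96 to 56.7 M reads. Vip, the targeted gene, had a signal of 93.0 in WT normoxia 5 and of 106 in VIPKO hypoxia 4. In the other libraries it was 0 to 12.7 in WT and 1.08 to 5.54 in VIPKO, where 3 reads were worth 1.03 to 11.7. Its RNA was thus low in most libraries of both genotypes and did not separate them, which leaves the state of the gene untested. The lung markers Sftpc, Ager, Pecam1 and Cldn5 were present in every library. A list of 12 skeletal muscle genes summed to 42132 in WT hypoxia 5 and to between 109 and 1494 in the others, and 7 thymus genes summed to 6017 in VIPKO hypoxia 3 and to between 257 and 505 in the others. On the first principal component of all rows, VIPKO normoxia 2 and 3 and VIPKO hypoxia 2 stood apart at the low end. Their scores were -75.4 to -59.2 and the next lowest library had -33.6. At the high end VIPKO hypoxia 3 had 76.2, WT hypoxia 3 had 58.9, WT hypoxia 5 had 58.5 and the next library 40.9. Below, the 3 libraries apart on the first component are those of the low end. Without them VIPKO normoxia keeps only libraries 1 and 4, so a lost call cannot be told apart from the effect of fewer libraries. Named calls that were lost without the muscle library, the thymus library or those 3 are given with and without them.

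Total immunoglobulin signal, summed over the 203 names, differed more between libraries than between groups. It ran from 2710 in WT hypoxia 1 to 21562 in WT hypoxia 4, a ratio of 7.96 within 1 group. Its mean was 7442 ± 5716 (SD, n = 6) in WT normoxia, 12112 ± 7617 (n = 5) in WT hypoxia, 10560 ± 4123 (n = 4) in VIPKO normoxia and 8213 ± 4361 (n = 5) in VIPKO hypoxia, and all 4 ranges overlapped.

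Signal per kb of annotated exon allows constant regions of different length to be ranked, as far as the annotation is equally complete. The annotated length was 1326 bases for Ighg2c and 2512 to 2678 for Ighg1, Ighg2b, Ighg3 and Igha. The place of Ighg2c and the class shares below depend on those lengths. In WT normoxia the order was Igkc at 2329 ± 2207 (SD, n = 6), Ighm at 1570 ± 1386, Ighd at 388 ± 152, Igha at 251 ± 131, Iglc2 at 148 ± 77.5, Ighg2c at 124 ± 223, Iglc3 at 111 ± 62.2, Iglc1 at 81.97 ± 31.9, Ighg2b at 56.3 ± 62.6, Ighg3 at 14.3 ± 28.4 and Ighg1 at 11.96 ± 21.2. IgM was thus the leading heavy-chain class and the IgG classes were scarce. The ranges of Ighm (699 to 4351) and Ighd (188 to 562) did not overlap, and every other pair of neighbours in that order had ranges that did. Ighe, the constant region of IgE, had a signal of at most 2.16 in any library, under or near the level of 3 reads. Iglc4 reached 5.34 at most and was at 0 in 14 of 20 libraries.

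**Figure D1:**
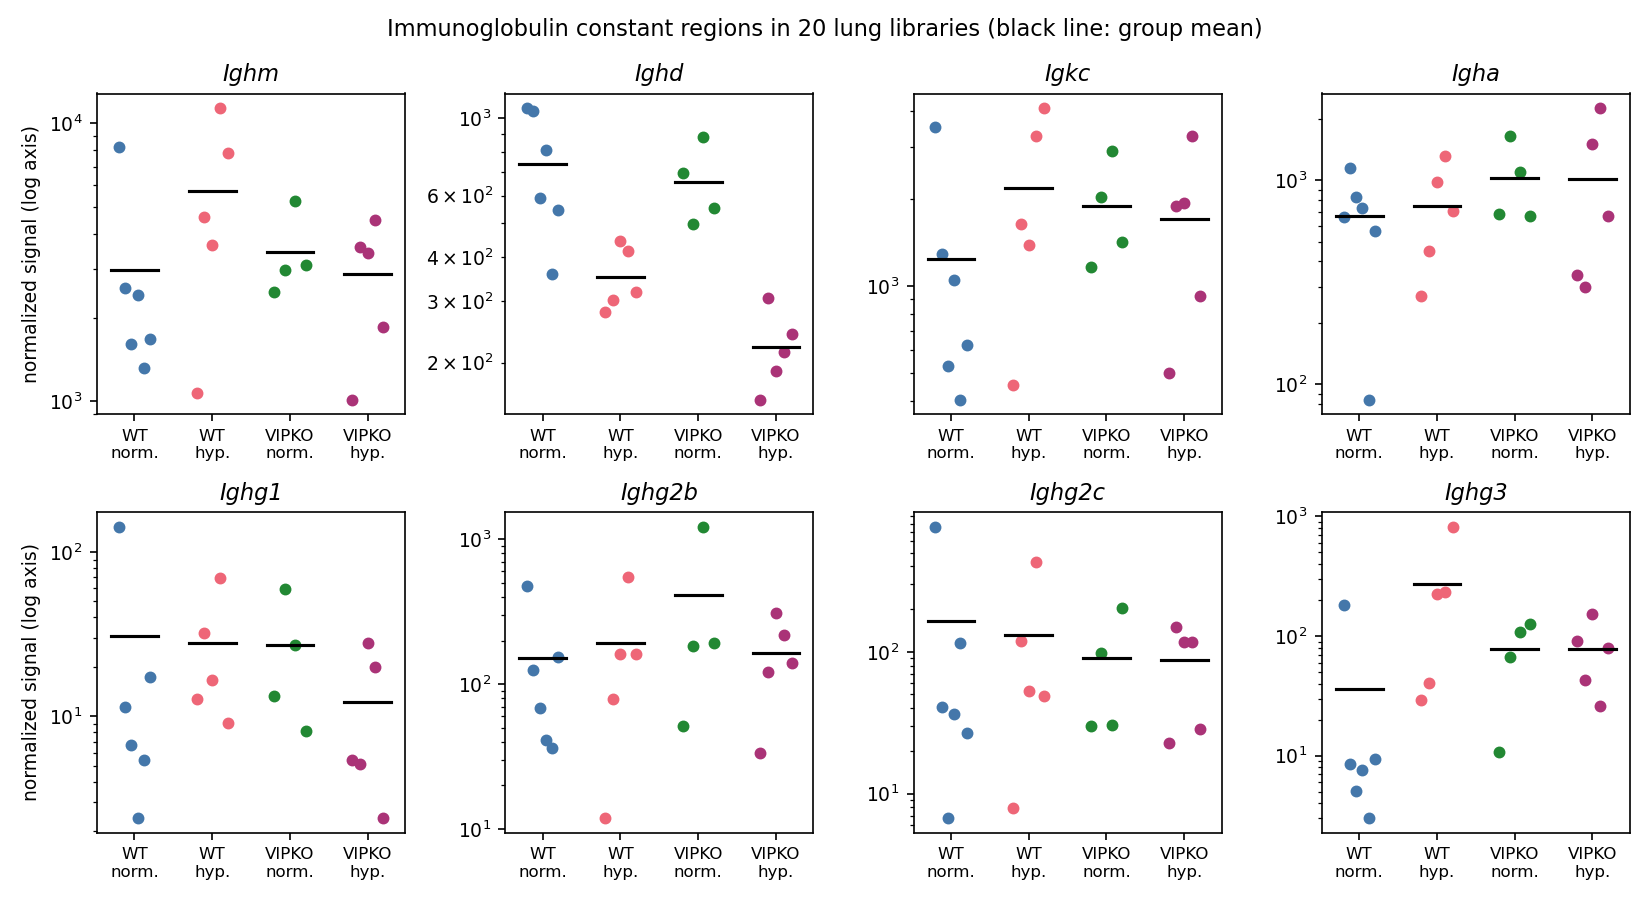
Normalized signal (log axis) of 8 constant regions in the 20 libraries; each point is 1 library and the black line is the group mean. Ighd is lower in the 5 VIPKO hypoxia libraries (157 to 307) than in the 4 VIPKO normoxia libraries (497 to 882), whereas Ighm, Igkc and Igha overlap between all groups.

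Ighd, the constant region of IgD and a mark of resting mature B cells, fell in hypoxia in both genotypes. It lies at chr12:113406604-113416324 on the minus strand (GRCm38, mm10). Its signal in WT normoxia had a lowest value of 358, a median of 699 and a highest of 1068, against 279, 303, 444, 416 and 318 in WT hypoxia libraries 1 to 5. All WT hypoxia libraries lay under 5 of the 6 WT normoxia libraries, and WT normoxia 5, at 358, lay among them. In VIPKO it was 695, 497, 882 and 552 in normoxia libraries 1 to 4, and 157, 307, 190, 215 and 241 in hypoxia libraries 1 to 5, with no overlap.

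On the log2(signal + 1) scale, the Ighd change with hypoxia was -0.99 ± 0.24 (SE) in WT (limma, Benjamini-Hochberg adjusted p = 0.0148) and -1.56 ± 0.27 in VIPKO (adjusted p = 0.00487). Leaving out any 1 library kept both calls. Without the 3 libraries that stood apart on the first component, the VIPKO change was -1.64 with an adjusted p of 0.0586. The difference between the 2 changes was -0.58 ± 0.36 (interaction, adjusted p = 0.494). Ighd did not pass the test between genotypes in normoxia (-0.10 ± 0.26, adjusted p = 0.852) or in hypoxia (-0.68 ± 0.25, adjusted p = 0.158).

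Ighm, the constant region of IgM, did not pass the test in any comparison. Its signal in WT normoxia had a lowest value of 1318, a median of 2039 and a highest of 8205, and in WT hypoxia it was 1069, 4592, 3648, 11362 and 7804. In VIPKO it was 2474, 2979, 5270 and 3105 in normoxia and 1014, 3580, 3420, 4504 and 1858 in hypoxia. The highest library was WT hypoxia 4, the next WT normoxia 1, and the groups overlapped. The change with hypoxia was 0.88 ± 0.52 in WT (limma adjusted p = 0.243) and -0.39 ± 0.58 in VIPKO (adjusted p = 0.811), with an interaction of -1.27 ± 0.78 (adjusted p = 0.475). Ighm and Ighd, spliced from the same primary transcript, had opposite signs in WT hypoxia. Ighd per Ighm, per kb, was 30.5% ± 9.74 in WT normoxia, 10.4% ± 9.29 in WT hypoxia, 19.7% ± 5.50 in VIPKO normoxia and 9.40% ± 4.61 in VIPKO hypoxia.

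The log2 ratio of Ighd to Ighm changed by -1.87 with hypoxia in WT (2-sided exact permutation p = 0.00866, adjusted over 24 comparisons 0.130) and by -1.17 in VIPKO (exact permutation p = 0.0238, adjusted 0.190). With limma over all rows the adjusted p was 0.113 and 0.981. Neither change passed the threshold once adjusted.

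Among switched classes Ighg3, the constant region of IgG3, rose with hypoxia in WT. It lies at chr12:113356224-113361232 on the minus strand. In WT normoxia its signal was low, with a lowest value of 3.00, a median of 8.03 and a highest of 182, whereas WT hypoxia libraries 1 to 5 had 29.3, 40.6, 226, 233 and 824. Every WT hypoxia library exceeded 5 of the 6 WT normoxia libraries, and WT normoxia 1, at 182, lay inside the hypoxia range. In VIPKO it was 10.6, 67.4, 109 and 127 in normoxia and 90.3, 43.0, 153, 26.2 and 79.1 in hypoxia, which overlapped.

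The Ighg3 change with hypoxia was 3.50 ± 0.92 in WT (limma adjusted p = 0.0185) and 0.21 ± 1.02 in VIPKO (adjusted p = 0.954), and the interaction was -3.29 ± 1.37 (adjusted p = 0.280), so the changes were not shown to differ. The WT adjusted p became 0.0514 without WT hypoxia 3 and 0.0536 without WT hypoxia 5, the library with muscle genes, where the change was 3.33 and 2.86. As a ratio to Ighm it rose by 2.62 in WT (limma adjusted p = 0.0359), the 1 class called by that measure, against 0.526% of all rows. In the other comparisons limma called 0 of 10 constant regions relative to Ighm. The share of all rows called was 0.342% in VIPKO against WT in normoxia, 0.249% in VIPKO hypoxia, 0.189% for the interaction and 0.171% between genotypes in hypoxia. At an unadjusted p under 0.05 the 10 regions gave 1, 0, 1 and 1 in the same order. The share of all rows at that unadjusted level was not computed for these ratios, so those counts have nothing to be set against. Without WT normoxia 1 or WT hypoxia 1 the count in WT hypoxia was 2. The call was lost by the exact permutation test (p = 0.0108, adjusted over 24 comparisons 0.130) and without any 1 of 9 libraries, WT normoxia 2 to 6, WT hypoxia 3 and 5 and VIPKO normoxia 2 and 4, with adjusted p from 0.0548 to 0.301. In normoxia VIPKO exceeded WT by 2.21 ± 0.98 (adjusted p = 0.160), or by 2.99 (adjusted p = 0.0362) without WT normoxia 1.

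Igha, the constant region of the IgA secreted at mucosal surfaces, was the most abundant switched class in every group mean per kb and varied widely within groups. It did not lead in every library. By signal it was under Ighg2c in WT normoxia 1 (662 against 764) and WT normoxia 5 (84.0 against 115). It was under Ighg3 in WT hypoxia 5 (707 against 824) and under Ighg2b in VIPKO normoxia 3 (1092 against 1225). The Igha signal in WT normoxia had a lowest value of 84.0, a median of 695 and a highest of 1148. In WT hypoxia it was 270, 452, 984, 1310 and 707. In VIPKO it was 681, 1648, 1092 and 669 in normoxia and 342, 300.01, 1501, 2258 and 669 in hypoxia. The groups overlapped throughout. The change with hypoxia was 0.29 ± 0.60 in WT (limma adjusted p = 0.772) and -0.35 ± 0.66 in VIPKO (adjusted p = 0.859), and VIPKO differed from WT by 0.85 ± 0.64 in normoxia (adjusted p = 0.432) and by 0.21 ± 0.63 in hypoxia (adjusted p = 0.886).

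Ighg1, Ighg2b and Ighg2c, the constant regions of 3 further IgG subclasses, passed the test in no comparison. Ighg2c ran from 6.71 to 764 in WT normoxia, from 7.92 to 428 in WT hypoxia, from 30.1 to 205 in VIPKO normoxia and from 22.8 to 149 in VIPKO hypoxia. Ighg2b had its highest signal, 1225, in VIPKO normoxia 3, where the other 3 libraries of that group lay between 51.4 and 193. Ighg1 was the scarcest, with a highest signal of 143 in WT normoxia 1 and a lowest of 2.40. Igkc, which most mouse light chains carry, ran from 406 to 4097, both extremes being in WT, and did not pass in any comparison. Of the lambda constant regions, Iglc2 ran from 26.0 to 356, Iglc3 from 11.7 to 132 and Iglc1 from 17.4 to 115, and none passed.

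The switched share of heavy-chain constant signal per kb, over IgG and IgA together, was 18.7% ± 3.61 (SD, n = 6) in WT normoxia, 15.2% ± 3.54 (n = 5) in WT hypoxia, 22.5% ± 6.21 (n = 4) in VIPKO normoxia and 24.1% ± 7.19 (n = 5) in VIPKO hypoxia. Ranges overlapped between all groups, the widest being 12.3% to 30.5% in VIPKO hypoxia. The Ighm share was 62.7% ± 6.47, 77.2% ± 7.59, 64.7% ± 3.44 and 69.4% ± 6.40 in the same order, and the Ighd share 18.6% ± 4.80, 7.56% ± 5.96, 12.8% ± 3.85 and 6.49% ± 3.04. Of the switched classes IgA was the largest in every group mean, at 12.2% ± 7.15, 8.65% ± 3.81, 14.02% ± 6.35 and 16.4% ± 7.23. The lambda share of light-chain constant signal per kb was 15.7% ± 4.86, 10.1% ± 4.48, 15.2% ± 3.26 and 11.8% ± 2.92. These shares are values over members and carry no test.

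**Figure D2:**
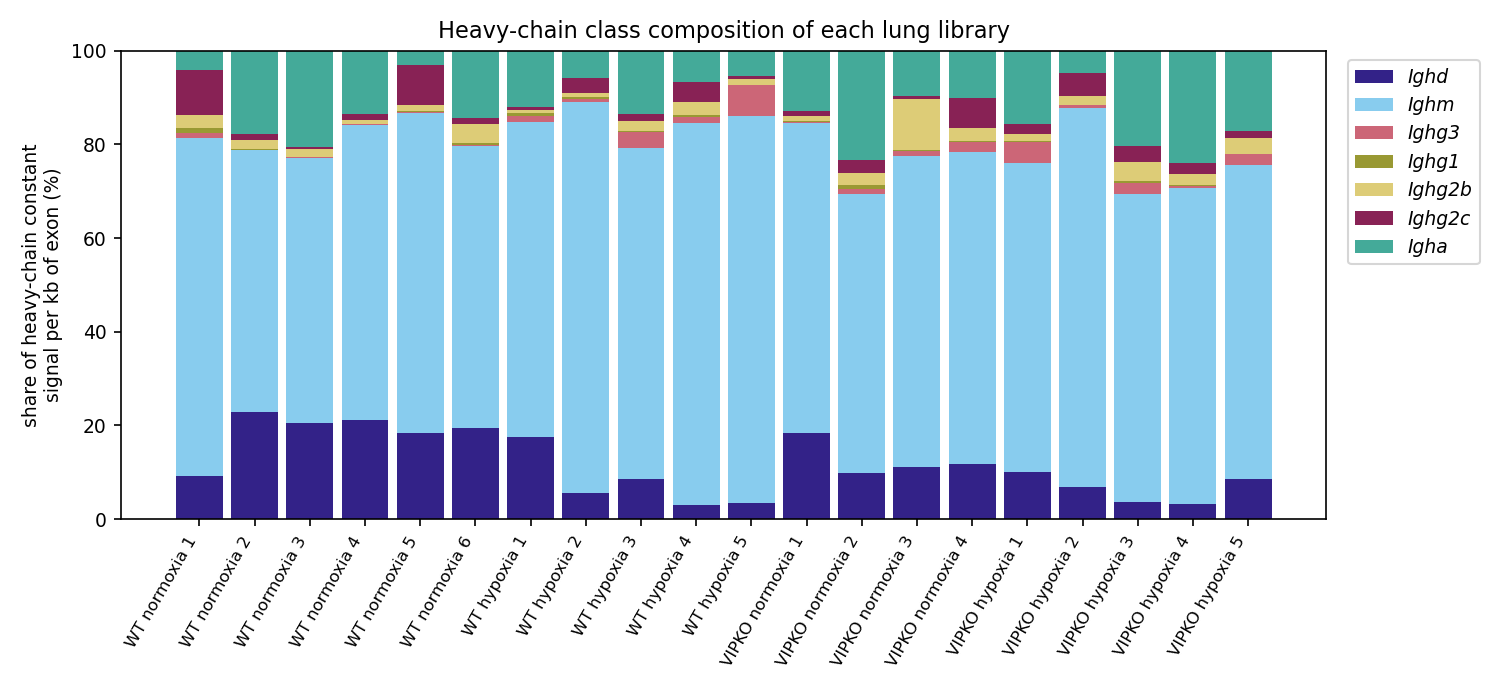
Share of heavy-chain constant signal per kb of exon (%) held by each class in each of the 20 libraries. Ighm is the largest class in every library, and the Ighd share runs from 2.97% to 22.8%.

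Among genes outside the immunoglobulin members, those most like each constant region across the 20 libraries differed by class. Ighd, added to this search after its values were seen, was most like Pou2af1, a B cell coactivator, with Pearson r = 0.964 (Spearman rho 0.959), Fcrla, an Fc receptor-like protein of B cells, with r = 0.963, and Ms4a1, which encodes CD20, with r = 0.952. After group means were taken off, r for these 3 genes was 0.898, 0.865 and 0.865. Over the 17 B cell genes listed, the median r with Ighd was 0.926 and the lowest -0.18. Ighm was most like Jchain, which encodes the chain that joins IgM pentamers and IgA dimers (r = 0.897, rho 0.928, within groups 0.930), then Mzb1, a chaperone of plasma cells (r = 0.818), and Scara3 (r = 0.806). Over the 14 plasma cell genes tested, the median r with Ighm was 0.219 and the lowest -0.305. After group means were taken off that median was 0.21. The median r of Ighm with the B cell genes was 0.250, or 0.618 after group means were taken off. Its r with Ighd was 0.232, or 0.597 after group means were taken off. Ighm and Igkc had r = 0.942. Igha was most like Pla2g2d (r = 0.797, rho 0.562), Lacc1 (r = 0.739, rho 0.842) and Mtap (r = 0.717, rho 0.489). Without the 2 libraries farthest from the median of Igha, r for these genes was 0.671, 0.794 and 0.395 in turn. These values rest on 20 libraries that share 4 groups and 1 normalization, the genes were picked as the highest of all rows that are not members, and no test is attached.

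**Figure D3:**
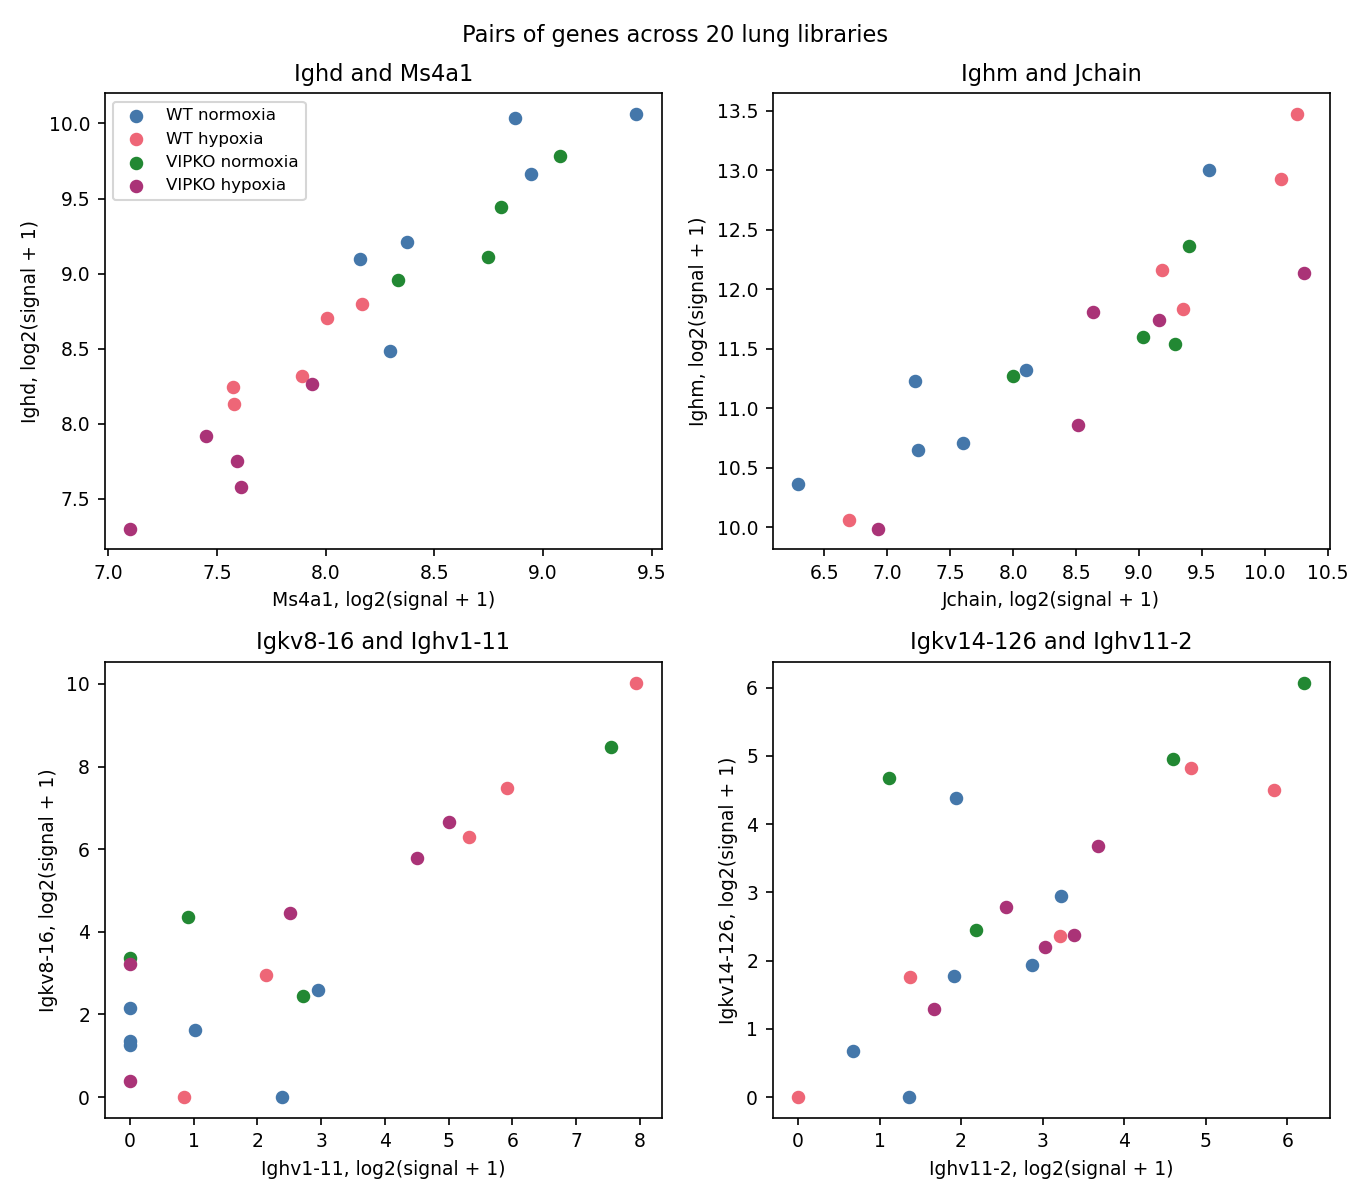
Log2(signal + 1) of 4 pairs of genes in the 20 libraries, coloured by group; each point is 1 library. Ighd runs with Ms4a1 (r = 0.952) and Ighm with Jchain (r = 0.897), and the V segments Igkv8-16 and Ighv1-11 (r = 0.867) and Igkv14-126 and Ighv11-2 (r = 0.757) are high in the same libraries.

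Genes of B cells fell with hypoxia alongside Ighd. In WT 14 of 17 fell and 1, Vpreb3, rose, with a median of -0.81 over the 17 against -0.01 over all rows, of which 14.7% were called. Among those that fell were Bank1 (-1.15 ± 0.21, limma adjusted p = 0.00379), Pax5 (-1.18 ± 0.23, adjusted p = 0.00550) and Fcer2a (-1.25 ± 0.26, adjusted p = 0.00756). In VIPKO 10 of 17 fell, among them Pax5 (-1.51 ± 0.26, adjusted p = 0.00458), Blk, Ms4a1 and Cr2, with a median of -1.20 against -0.01 over all rows, of which 0.997% were called. None passed between genotypes in either oxygen level. The summed signal of the 17 was 4975 to 12416 in WT normoxia, 3537 to 6177 in WT hypoxia, 5765 to 8856 in VIPKO normoxia and 3129 to 4329 in VIPKO hypoxia. The count in WT was 8, 9, 9, 7, 8 and 9 without WT normoxia 1, 2 or 4 and WT hypoxia 1, 2 or 3 in turn and 10 without WT hypoxia 5, and that in VIPKO was 6, 1, 5 and 6 without VIPKO normoxia 1 or 3 and VIPKO hypoxia 1 or 4. Without the 3 libraries apart on the first component the VIPKO count was 0, with 15 of 17 at an unadjusted p under 0.05 and a median of -1.12.

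Of 10 T cell genes, markers of the other main lymphocyte, limma called 0 in all 5 comparisons, with 0 at an unadjusted p under 0.05. Over all rows it called from 0.282%, for the interaction, to 14.7%, in WT hypoxia. The T cell genes had a median change with hypoxia of -0.43 in WT, with 0 of 10 above 0. In VIPKO that median was -0.002, with 5 of 10 above 0. Without VIPKO hypoxia 3, the library with thymus genes, the VIPKO median was -0.65, with 0 of 10 called, 6 at an unadjusted p under 0.05 and 0 of 10 above 0. Their summed signal was 10682 in that library and 617 to 1934 in the others.

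Genes of plasma cells did not move as a block. In WT hypoxia Sdc1, which encodes CD138 and is also made by epithelium, rose by 0.62 ± 0.15 (limma adjusted p = 0.0134), Fkbp11 rose by 0.82 ± 0.20 (adjusted p = 0.0154), and Prdm1, which encodes BLIMP1, fell by 0.64 (adjusted p = 0.0302), of 14 tested. Over all rows limma called 14.7% in WT hypoxia, 0.997% in VIPKO hypoxia, 8.65% between genotypes in normoxia and 1.62% between them in hypoxia. In VIPKO hypoxia Prdm1 fell by 0.88 (limma adjusted p = 0.0484) and no other plasma cell gene passed. Jchain changed by 1.45 ± 0.62 in WT (adjusted p = 0.111) and by -0.22 ± 0.69 in VIPKO (adjusted p = 0.921). Fkbp11 was also higher in VIPKO than in WT in normoxia (0.77 ± 0.22, adjusted p = 0.0341), and Txndc5 lower in VIPKO than in WT in hypoxia (-0.35 ± 0.07, adjusted p = 0.0201). Without the 3 libraries apart on the first component, the Prdm1 change in VIPKO hypoxia was -1.09 (limma adjusted p = 0.164), that of Fkbp11 in normoxia was 0.82 (adjusted p = 0.238) and that of Txndc5 was -0.31 (adjusted p = 0.0815), and without VIPKO hypoxia 3 that of Prdm1 was -0.74 (adjusted p = 0.104). Without WT hypoxia 5 the limma adjusted p of Prdm1 in VIPKO hypoxia was 0.0506. Tnfrsf17, the plasma cell receptor BCMA, did not meet the threshold on signal.

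Few genes that guide, switch or export antibody were called. Limma called 14.7% of all rows in WT hypoxia, 0.997% in VIPKO hypoxia, 8.65% between genotypes in normoxia and 1.62% between them in hypoxia. A single call of a list in WT hypoxia is thus a value of that gene and not a result about the list. Cxcr5, the receptor that brings B cells to follicles, fell by 1.32 in WT hypoxia (limma adjusted p = 0.00240) and by 1.11 in VIPKO hypoxia (adjusted p = 0.0349), the 1 call among 7 survival and switch factors tested. Ccl21a, a chemokine of lymphoid stroma and lymphatic vessels with near-identical gene copies, which makes its level uncertain, rose by 1.28 and 1.63 (adjusted p = 0.000832 and 0.000129), the 1 call among 4 stromal genes. Itga4, an integrin of lymphocyte homing, fell by 0.54 and 0.65 (adjusted p = 0.0169 and 0.0466), the 1 call among 6 export and homing genes. Fcgrt, the neonatal Fc receptor, rose by 0.47 ± 0.10 in WT hypoxia (adjusted p = 0.00710), the 1 call among 8 Fc receptor genes, and none of the 8 passed in VIPKO. Of 5 germinal centre and switching genes tested none passed with hypoxia, and in normoxia VIPKO had more Fas (0.63 ± 0.16, adjusted p = 0.0191) and less S1pr2 (-0.47 ± 0.12, adjusted p = 0.0227) than WT. No gene of these lists passed between genotypes in hypoxia. Without the 3 libraries apart on the first component, limma called Ccl21a in VIPKO hypoxia (adjusted p = 0.0141) but not Cxcr5 (0.299) or Itga4 (0.478), nor Fas (0.184) or S1pr2 (0.285) in normoxia. Without VIPKO hypoxia 3, the VIPKO calls of Cxcr5 (adjusted p = 0.0694) and Itga4 (0.0856) were lost, and without WT hypoxia 5 that of Itga4 (0.0505).

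Over the 99 members, 3 passed the test in VIPKO against WT in normoxia, all higher in VIPKO, against 8.65% of all rows. They were Igkv6-17 (2.32 ± 0.53, limma adjusted p = 0.0132), Iglv2 (2.77 ± 0.66, adjusted p = 0.0167) and Ighv6-3 (2.75 ± 0.69, adjusted p = 0.0201). The median change over the 99 was 1.10 and 93 of 99 were above 0, while the median over all rows was 0.01. The typical SE was 0.77 for a member and 0.20 for all rows, so single segments were measured with far less precision than other genes. The count was 7, 5, 7, 0 and 1 without WT normoxia 1 or 2 and VIPKO normoxia 1, 2 or 3 in turn, and 0 without the 3 libraries apart on the first component.

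In hypoxia in WT 3 members passed, against 14.7% of all rows: Ighg3 and Igkv6-17 (1.59 ± 0.50, limma adjusted p = 0.0368) rose and Ighd fell. The median was 0.56 and 74 of 99 were above 0, and the count was 6, 1 and 5 without WT hypoxia 1, WT hypoxia 3 or VIPKO hypoxia 3. In hypoxia in VIPKO 1 passed, Ighd, against 0.997% of all rows, and the median was -0.65 with 17 of 99 above 0. Comparing VIPKO with WT in hypoxia, limma called 0 of 99, with 6 at an unadjusted p under 0.05, against 1.62% of all rows called and 18.8% at that unadjusted level. It also called 0 for the interaction of genotype and oxygen, with 19 of 99 at an unadjusted p under 0.05, against 0.282% of all rows called and 14.2% at that unadjusted level. The median interaction was -1.20, and 14 of 99 were above 0. It called 1 without WT normoxia 1 and 2 without WT hypoxia 4, VIPKO normoxia 1 or VIPKO hypoxia 3, and the count between genotypes in hypoxia was 1 without VIPKO hypoxia 1. The comparisons share control libraries, WT normoxia in the normoxia and WT hypoxia comparisons and VIPKO normoxia in the normoxia and VIPKO hypoxia comparisons, so these medians are not independent of each other.

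Secretory genes of the airway also differed in VIPKO against WT in normoxia and in WT hypoxia. Of 10 listed, 9 rose in the first (limma, 8.65% of all rows called) and 8 in WT hypoxia (14.7% called), and none passed in VIPKO hypoxia or between genotypes in hypoxia. Their summed signal was 142256 to 199517 in WT normoxia, 162619 to 387372 in WT hypoxia, 237393 to 425795 in VIPKO normoxia and 201225 to 325173 in VIPKO hypoxia, most of it Scgb1a1. Scgb3a1, Reg3g, Tff2, Gp2 and Pax9 were at 0 in 1 to 4 libraries. The 2 mitochondrial ribosomal RNAs also rose in VIPKO against WT in normoxia, from a sum of 97.7 to 2075 in WT normoxia to one of 12034 to 27208 in VIPKO normoxia. Without the 3 libraries apart on the first component, limma called 0 of the 10 and 0 of the 2 in VIPKO against WT in normoxia, with 8 and 2 at an unadjusted p under 0.05 and medians of 3.47 and 4.86. The part of either in the immunoglobulin values was not tested.

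Igkv6-17, a kappa V segment at chr6:70371439-70371993 on the plus strand, was the V segment called in both of those comparisons. Its signal in WT normoxia had a lowest value of 1.68, a median of 5.11 and a highest of 13.4, against 6.33, 15.2, 15.2, 31.1 and 20.6 in WT hypoxia and 16.8, 72.4, 27.4 and 15.1 in VIPKO normoxia. All VIPKO normoxia libraries exceeded all WT normoxia libraries, and WT hypoxia overlapped WT normoxia through WT hypoxia 1. In VIPKO hypoxia it was 3.97, 7.94, 10.8, 7.34 and 9.59, and its interaction was -3.29 ± 0.74 (limma adjusted p = 0.0619). The normoxia call was lost without VIPKO normoxia 2 (adjusted p = 0.0759) and without the 3 libraries apart on the first component (1.61, adjusted p = 0.275). The hypoxia call was lost with no filter on signal (limma adjusted p = 0.0504), with library weights (0.0811) or with only the groups compared (0.0551). It was also lost without both the muscle and thymus libraries (0.0706). The same held without WT normoxia 3, 5 or 6 or WT hypoxia 2, 3, 4 or 5 (adjusted p from 0.0529 to 0.0798).

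Ighv6-3, a heavy V segment at chr12:114391712-114392169 on the minus strand, had a signal of 0 to 14.1 with a median of 2.99 in WT normoxia, and of 8.87, 42.5, 76.5 and 13.97 in VIPKO normoxia. The highest WT normoxia library, replicate 1, exceeded 2 of the 4 VIPKO normoxia libraries. The call was lost without VIPKO normoxia 2 (adjusted p = 0.0869), without VIPKO normoxia 3 (adjusted p = 0.0785) and without the 3 libraries apart on the first component (1.62, adjusted p = 0.354).

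Iglv2 is shown with Iglv1 because the V exons of these lambda segments are nearly alike, so that reads counted for one may come from the other. The exons differ at 9 of 305 bases, an identity of 97.05%. The first 300 bases, 5′ to 3′, are given below from the GENCODE transcripts (GRCm38) in lower case, with capitals at the bases that differ between them. Iglv1 lies at chr16:19085022-19085321 and Iglv2 at chr16:19260406-19260705, both on the minus strand.
Iglv1: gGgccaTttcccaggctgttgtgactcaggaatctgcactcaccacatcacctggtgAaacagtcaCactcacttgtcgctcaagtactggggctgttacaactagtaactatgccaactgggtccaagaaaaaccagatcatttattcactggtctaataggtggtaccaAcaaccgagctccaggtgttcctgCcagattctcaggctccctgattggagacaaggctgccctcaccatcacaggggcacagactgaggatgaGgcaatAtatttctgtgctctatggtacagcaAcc
Iglv2: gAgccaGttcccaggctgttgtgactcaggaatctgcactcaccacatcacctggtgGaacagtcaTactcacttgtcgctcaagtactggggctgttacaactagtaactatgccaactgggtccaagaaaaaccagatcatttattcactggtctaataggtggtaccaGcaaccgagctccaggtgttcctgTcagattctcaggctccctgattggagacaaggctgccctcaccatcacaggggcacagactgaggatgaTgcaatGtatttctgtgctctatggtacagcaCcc

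Iglv2 had a signal of 1.20 to 11.02 with a median of 7.65 in WT normoxia and of 21.3, 33.1, 176 and 26.8 in VIPKO normoxia, with no overlap. It was 6.33, 35.5, 41.5, 11.7 and 36.6 in WT hypoxia and 2.89, 15.5, 16.2, 11.5 and 3.60 in VIPKO hypoxia. The high value of 176, in VIPKO normoxia 3, was 4.25 times the next highest of any library. The interaction was -4.06 ± 0.93 (limma adjusted p = 0.0680). The call in normoxia was lost without VIPKO normoxia 2 (adjusted p = 0.0517), without VIPKO normoxia 3 (2.10, adjusted p = 0.0672) and without the 3 libraries apart on the first component (1.95, adjusted p = 0.267). Iglv1 ran from 9.499 to 155 over all libraries, and in VIPKO normoxia 3, where Iglv2 was highest, it was 90.0. Of the 88 V segments that met the threshold, 16 have another V segment of their locus at an identity of 97% or more over the exon. Only segments among the matching names were compared, so 16 is a minimum.

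V segments were used unevenly, and the leading segment changed from library to library. The heavy V segment with the highest signal was a different one in many libraries, 14 segments over 20 libraries, and the leading light V segment was 1 of 12. The leading heavy segment held 5.20% to 21.7% of the heavy V signal of its library, with a median of 12.1%, and the leading light segment 5.45% to 38.2% of the light V signal, with a median of 11.9%. Ighv1-26 and Ighv1-80 each led in 3 libraries, Ighv1-11 and Ighv3-6 in 2 each, Igkv8-16 in 4, Iglv1 in 3, and Igkv1-110, Igkv1-117 and Igkv4-55 in 2 each. V segments with the highest mean signal were Igkv8-16 at 94.5, Iglv1 at 76.3, Igkv1-110 at 70.6, Igkv1-117 at 48.7, Igkv10-96 at 44.4 and Igkv4-55 at 41.9. Igkv1-110 and Igkv1-117 were at 10 or more in all 20 libraries, whereas Igkv8-16 reached 10 in 8. The mean of Igkv8-16 without WT hypoxia 5 was 44.6, under the 76.3 of Iglv1, so its first place rests on that library.

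The inverse Simpson number, which equals the number of segments when all are equal and falls as a few dominate, was 32.0 ± 10.2 (SD, n = 6) for heavy V in WT normoxia, 23.5 ± 8.62 (n = 5) in WT hypoxia, 30.8 ± 9.52 (n = 4) in VIPKO normoxia and 24.4 ± 6.23 (n = 5) in VIPKO hypoxia. For light V it was 26.8 ± 5.54, 20.9 ± 12.2, 29.4 ± 8.36 and 18.5 ± 5.60. Both pools had lower means in the hypoxia groups, within the spread between libraries, and no test is attached. Heavy V segments above 0 numbered 57 to 87 of 96 in WT normoxia, 61 to 71 in WT hypoxia, 76 to 86 in VIPKO normoxia and 63 to 93 in VIPKO hypoxia. These numbers were not adjusted for depth, which ran from 4.96 to 56.7 M reads.

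**Figure D4:**
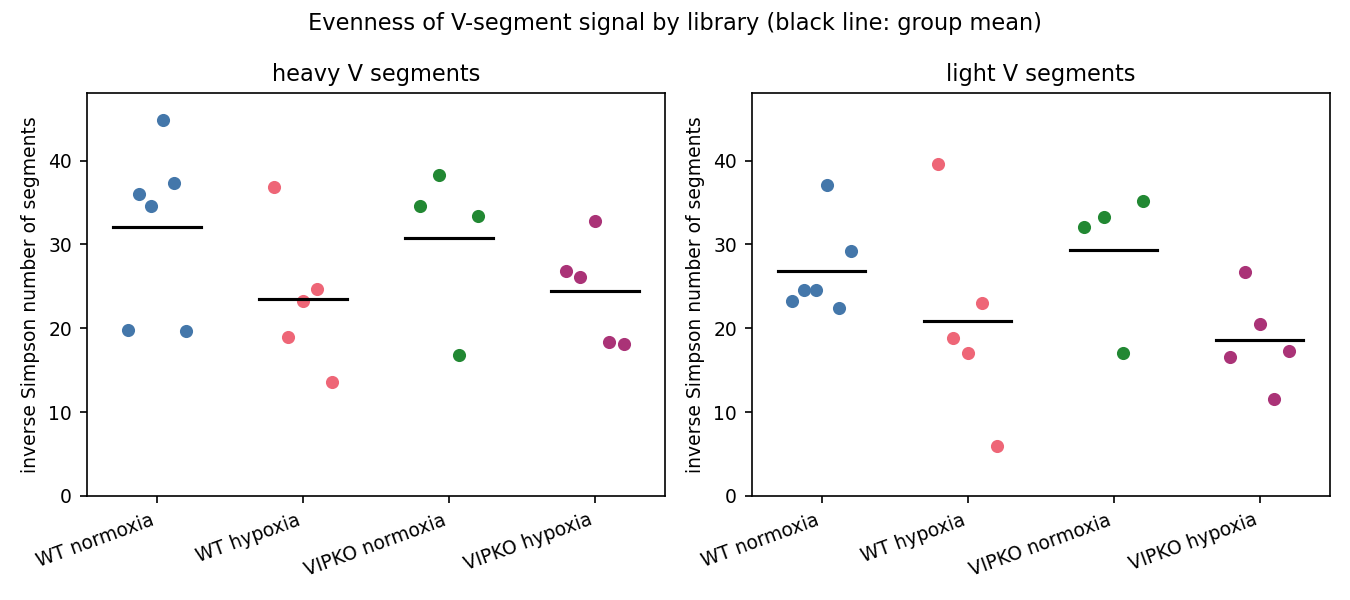
Inverse Simpson number of heavy and light V segments in each library by group; each point is 1 library and the black line the group mean. The lowest point, 5.98 among light segments, is WT hypoxia 5, in which Igkv8-16 held 38.2% of the light V signal.

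The pair with the highest correlation among all 1900 pairs of a heavy and a light V segment was Ighv1-11 with Igkv8-16. Their V exons are shown because both are far from the other segments of their locus among the matching names. Reads shared with those are thus less likely than for the lambda segments, and segments outside these names were not compared. Over the exon, Ighv1-11 is 81.97% identical to its closest match, Ighv1-84, and Igkv8-16 is 82.2% identical to Igkv8-19. The first 300 bases follow, 5′ to 3′, with capitals at bases that differ from that closest match. Ighv1-11 lies at chr12:114612248-114612547 and Igkv8-16 at chr6:70386688-70386987, both on the minus strand.
Ighv1-11: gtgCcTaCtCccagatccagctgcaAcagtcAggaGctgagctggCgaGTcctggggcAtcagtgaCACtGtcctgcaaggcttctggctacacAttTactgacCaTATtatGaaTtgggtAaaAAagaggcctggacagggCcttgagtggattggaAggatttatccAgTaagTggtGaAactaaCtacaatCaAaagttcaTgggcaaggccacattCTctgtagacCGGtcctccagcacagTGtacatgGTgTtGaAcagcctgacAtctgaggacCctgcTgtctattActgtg
Igkv8-16: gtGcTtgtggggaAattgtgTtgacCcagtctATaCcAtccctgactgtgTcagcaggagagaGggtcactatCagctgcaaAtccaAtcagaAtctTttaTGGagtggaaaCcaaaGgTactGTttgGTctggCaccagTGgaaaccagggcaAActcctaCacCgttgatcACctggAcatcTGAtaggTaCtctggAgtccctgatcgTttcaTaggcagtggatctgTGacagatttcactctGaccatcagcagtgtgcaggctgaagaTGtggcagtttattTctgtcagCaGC

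Ighv1-11 had a signal of 59.5, 38.9 and 246 in WT hypoxia 3, 4 and 5, 186 in VIPKO normoxia 3, and 21.7 and 31.3 in VIPKO hypoxia 1 and 3, and at most 6.71 in the other 14 libraries, 6 of which were at 0. In the same 6 libraries Igkv8-16 had 177, 77.7, 1044, 355, 54.5 and 99.3, and in the other 14 it had 21.0 at most. High libraries thus occurred in WT hypoxia, VIPKO normoxia and VIPKO hypoxia, and in none of the 6 WT normoxia libraries, where Ighv1-11 reached 6.71 and Igkv8-16 reached 5.03. Neither segment passed the test in WT hypoxia (3.37 ± 1.36, limma adjusted p = 0.0922, and 3.85 ± 1.42, adjusted p = 0.0698) or in VIPKO against WT in normoxia (adjusted p = 0.484 and 0.197).

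Pearson r of Ighv1-11 with Igkv8-16 was 0.867 over 20 libraries (Spearman rho 0.730), 0.846 after group means were taken off and 0.825 without WT hypoxia 5. Over the 1900 pairs the median r was 0.345 and the 95th percentile 0.654, and the pair was picked as the highest. The next pairs were Ighv9-3 with Igkv1-117 (r = 0.847) and Ighv6-3 with Igkv4-55 (r = 0.813). Bulk RNA does not show which chains a cell paired.

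A further pair was chosen after its values were seen, because Ighv11-2 with Igkv14-126 is a well known combination of mouse B-1 cells whose antibody binds phosphatidylcholine. Over the exon, Ighv11-2 is 76.5% identical to its closest match among the matching names, Ighv4-1. Igkv14-126 is 90.9% identical to Igkv14-111. Segments outside these names were not compared, so a closer one may exist. The exons are printed as above, with capitals at bases that differ from that match. Ighv11-2 lies at chr12:114048248-114048547 on the minus strand and Igkv14-126 at chr6:67896345-67896642 on the plus strand.
Ighv11-2: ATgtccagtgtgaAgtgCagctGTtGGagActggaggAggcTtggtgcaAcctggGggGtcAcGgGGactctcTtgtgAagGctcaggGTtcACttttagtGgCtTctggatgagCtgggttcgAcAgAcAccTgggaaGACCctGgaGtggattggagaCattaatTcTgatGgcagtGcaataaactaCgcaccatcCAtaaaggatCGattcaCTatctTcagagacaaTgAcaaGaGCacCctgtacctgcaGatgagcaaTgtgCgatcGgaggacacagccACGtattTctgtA
Igkv14-126: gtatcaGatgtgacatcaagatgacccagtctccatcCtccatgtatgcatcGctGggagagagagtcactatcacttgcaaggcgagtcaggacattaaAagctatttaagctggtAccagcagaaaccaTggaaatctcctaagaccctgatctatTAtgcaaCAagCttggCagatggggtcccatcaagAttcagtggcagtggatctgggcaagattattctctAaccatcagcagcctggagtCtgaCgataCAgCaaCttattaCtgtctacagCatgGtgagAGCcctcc

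Their r was 0.757 (Spearman rho 0.732), 17th highest of the 1900 pairs, and 0.657 without the 2 libraries farthest from the median of Ighv11-2. Ighv11-2 was highest in VIPKO normoxia 3 at 73.1, WT hypoxia 5 at 56.0, WT hypoxia 4 at 27.2 and VIPKO normoxia 2 at 23.3, and Igkv14-126 had 66.3, 21.7, 27.2 and 29.99 there. The remaining 16 libraries had at most 11.9 of Ighv11-2. Igkv14-126 was also at 19.8 in WT normoxia 2 and 24.4 in VIPKO normoxia 4, where Ighv11-2 was at 2.83 and 1.16.

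Some further segments were far higher in 1 or a few libraries than in the rest. In VIPKO hypoxia 4, the library with a Vip signal of 106, Igkv6-20 had 492 and Igkv6-32 had 310, or 21.7% and 13.7% of its light V signal, and Igkv6-20 was 2.94 times as high there as in the next library. Igkv8-16 likewise had 2.94 times the next library in WT hypoxia 5. Ighv14-4 led the heavy segments of VIPKO hypoxia 4 at 139, or 15.8% of heavy V signal. WT normoxia 1, the WT normoxia library with most Ighm, Igkc and IgG, had 220 of Igkv6-32, 203 of Igkv10-96 and 179 of Ighv8-8. Of the 88 V segments, WT hypoxia 4 and VIPKO normoxia 3 each held the highest value of 13, and WT normoxia 1 of 11, while 6 libraries held none.

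**Figure D5:**
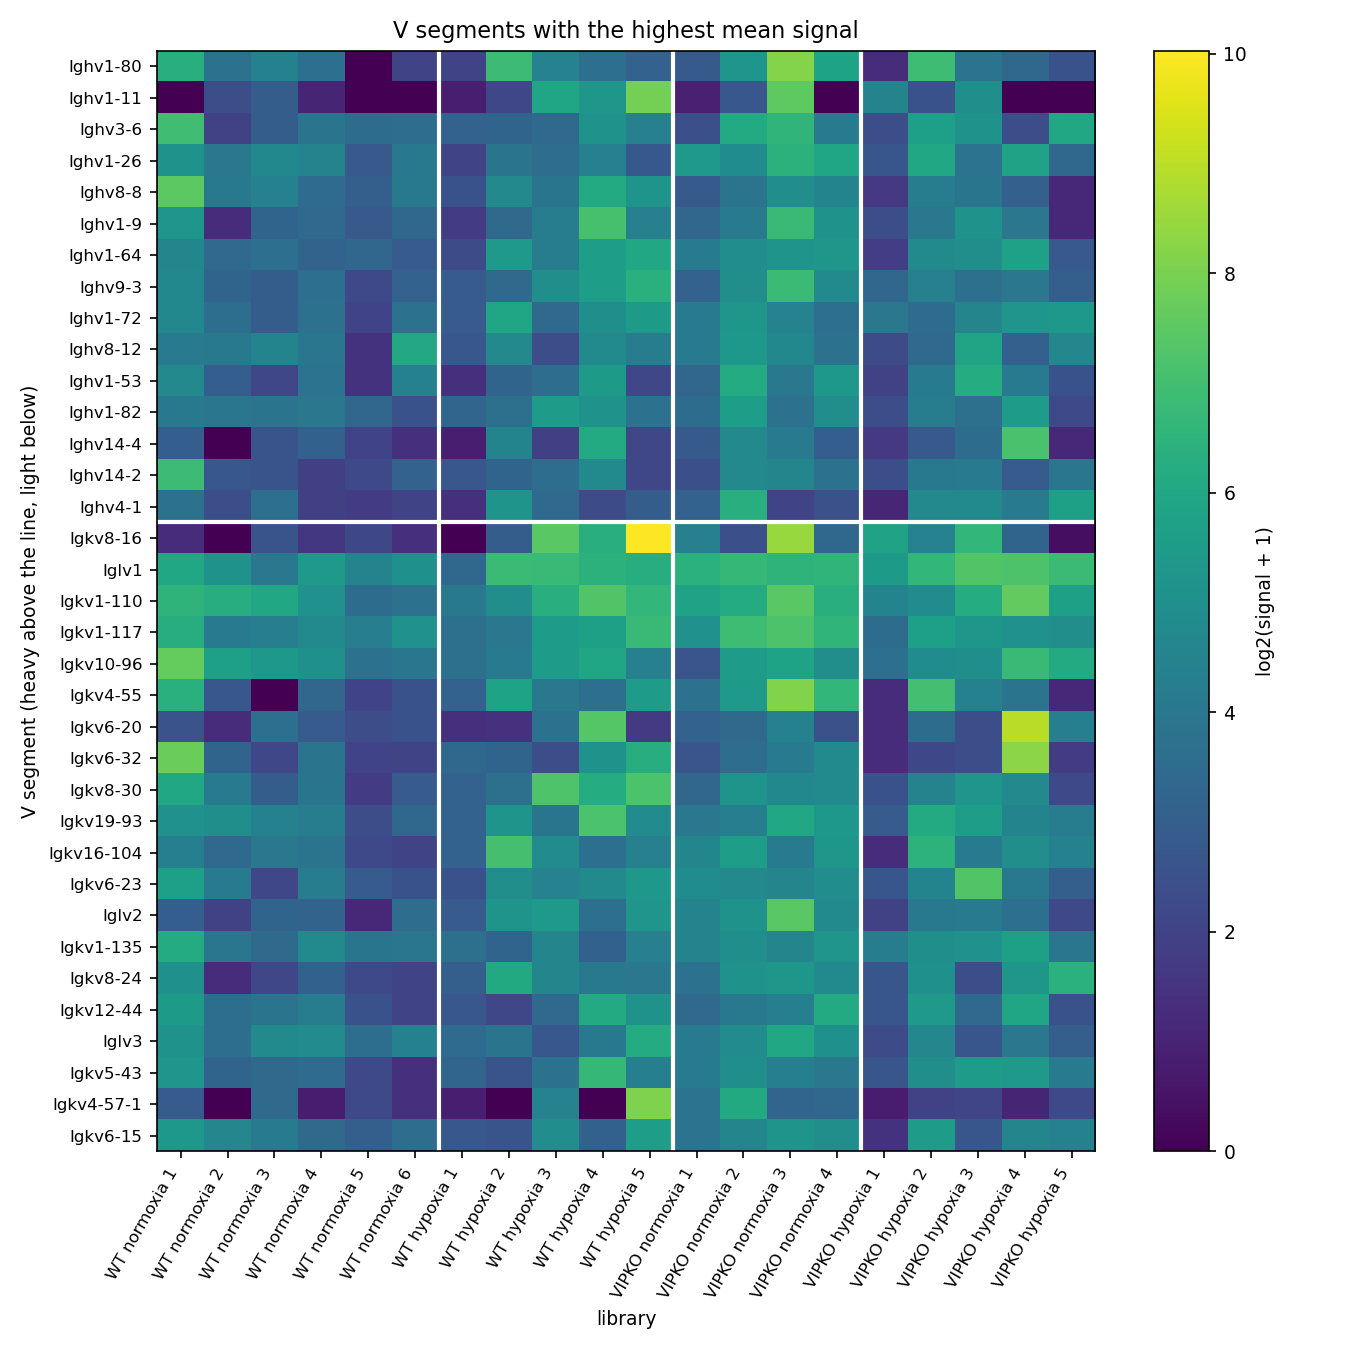
Log2(signal + 1) of the 15 heavy and 20 light V segments with the highest mean signal (rows) in the 20 libraries (columns, groups parted by white lines). Igkv1-110 and Igkv1-117 are present in every library, while Ighv1-11 and Igkv8-16 are bright in the same 6 libraries.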

How the data were processed

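RNA of whole lung was sequenced in 20 libraries of 4 groups, from libraries made with a directional kit per the labels' protocols. Per the submitters' processing notes, the authors processed reads in Partek against mm10, and the deposited signal is a table of values per gene, described in the labels as normalized counts of all samples. For the aligner, counting strand and normalization method, no source used here gives a name. The table has 30746 rows, of which 55 without a gene name were left out. These held at most 0.0187% of the signal. In each library the most frequent low value was taken as the worth of 1 read, which set the estimated depth of 4.96 to 56.7 M reads. In VIPKO hypoxia 2 only 40.3% of values up to 20 reads lay within 0.05 of a whole read, so a count model was not used. The level of 3 reads was a signal of 1.03 to 11.7, for counting error only.

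The analysis scale was log2(signal + 1), which understates changes of low genes. Rows at 10 or more in at least 4 libraries were kept (21658). A linear model with 4 group means and a variance trend was fitted to all 20 libraries in limma 3.58.1 (R 4.3.3), and p-values of 5 contrasts were adjusted by the Benjamini-Hochberg method over all rows (threshold 0.05). The fit was repeated after taking off the log2 signal of Ighm. That fit shares the noise of Ighm over all rows, so ratios were also compared by exact permutation over libraries, 2-sided, an alternative added after seeing the data. The steps were also run on simulated data with known changes. There the noise was normal and independent between rows, unlike that of members high in the same libraries, so no result here rests on that run. Annotated exon lengths, coordinates and V exons come from GENCODE vM21 (GRCm38), in which all 203 names matched 1 locus. Other steps used Python 3.11.15 with pandas 2.3.3, numpy 2.4.6, matplotlib 3.10.9 and Biopython 1.88.

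The members and gene lists were chosen with earlier results of these data known. Named genes were all constant regions, the V segments of highest mean, those called, those leading a library, the genes most like a constant region, up to 4 called genes of each list, and members nearest the threshold. Some genes of the lists are not reported here by name. Alternatives covered the pseudocount, filter, normalization, variance trend, library weights, the groups fitted, the replicate number as a block and left-out libraries. V segments share sequence, so their counts are uncertain where copies are near-identical.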

Additional observations from a re-analysis of the deposited data

Results flagged for a closer look

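In 72 group values of constant regions, class shares and V pools, 14 values, in 6 libraries, stood far from the rest of their group. The rule set the gap beside an extreme value against the range of its group, on values without logs. Its cutoffs flag about 1 in 20, or 3.6, where values follow a normal distribution. That was not checked here, so 3.6 is not a chance rate for these data. Values of 1 library are not separate from each other. WT normoxia 1 was the highest of its group for 6 constant regions: Ighm at 8205 (next 2558), Igkc at 3538 (next 1285), Ighg2c at 764 (next 115), Ighg2b at 479 (next 154), Ighg3 at 182 (next 9.44) and Ighg1 at 143 (next 17.3). WT hypoxia 4 was highest in Ighg2b at 552 (next 162) and Ighg2c at 428 (next 120). WT hypoxia 5 was highest in Ighg3 at 824 (next 233) and in the share of light V signal held by 1 segment, at 38.2% (next 14.5%). VIPKO normoxia 3 was highest in Ighg2b at 1225 (next 193) and Iglc2 at 356 (next 116). VIPKO normoxia 1 had the highest Ighd per Ighm of its group, at 27.9% (next 17.6%). VIPKO hypoxia 1 had the lowest Iglc1 of its group, at 23.1 (next 68.3).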

How the results depend on the processing

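Members called in VIPKO against WT in normoxia numbered 3, and 1 with the replicate number as a block, 13 with library weights, 10 with only the groups compared, 0 without the 3 libraries apart on the first component and 0 to 7 without 1 library. In WT hypoxia the 3 became 5 with library weights and 1 to 6 without 1 library, and in VIPKO hypoxia the 1 became 3 with library weights and 0 without the 3 libraries. For the interaction the 0 became 1 with quantile normalization, 2 with library weights, 2 without both the muscle and thymus libraries and 0 to 2 without 1 library. Without 1 library, 0 to 1 members passed between genotypes in hypoxia.

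Classes called relative to Ighm in WT hypoxia were 1, and 0 with a pseudocount of 5, with the replicate block, with only the groups compared, without the muscle and thymus libraries and without the 3 libraries, 5 with library weights and 0 to 2 without 1 library. Library weights gave 3 in VIPKO against WT in normoxia, 1 in VIPKO hypoxia, 4 for the interaction and 1 between genotypes in hypoxia. Over filtered rows alone the leading heavy V share in VIPKO hypoxia was 15.9%, and the inverse Simpson number of heavy V was 16.3 in VIPKO hypoxia, 20.4 in VIPKO normoxia and 21.0 in WT normoxia, since fewer segments enter.

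Signs turned for uncalled values. Igha became 0.47 in VIPKO hypoxia and 0.19 for the interaction without the 3 libraries, -0.00506 in WT hypoxia with library weights and -0.00470 in VIPKO against WT in hypoxia without the muscle and thymus libraries. Without 1 library it ran from -0.24 to 0.60 in WT hypoxia and from -0.19 to 0.54 in VIPKO against WT in hypoxia. Ighg3 in VIPKO hypoxia was -0.089 without the muscle and thymus libraries and -0.56 to 0.59 without 1 library, and Ighd in VIPKO against WT in normoxia -0.29 to 0.0271. The cause of these shifts was not tested. Whether replicate numbers pair the libraries was not settled. Of 27 same-numbered pairs, 7 correlated over 0.1, with a median of -0.02 and a highest of 0.41, against a median of 0.008 in other pairs. Of 20 libraries, 7 correlated best with their own number, and no chance level was computed for that count. With the replicate block the Ighg3 call in WT hypoxia was lost (adjusted p = 0.0591), as were Igkv6-17 in both comparisons (0.0565 and 0.0932) and Ighv6-3 (0.0657), and B cell genes that fell numbered 9 in WT and 3 in VIPKO, or 6 in VIPKO with no variance trend.

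Ighd in WT and VIPKO hypoxia kept its direction under every alternative run. Low segments rest on few reads, and WT hypoxia 4, at 4.96 M reads, limits them most: a count of 0 there allowed a signal of up to 11.7.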
